A study of Danio rerio with 7 samples.

Results

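Respiratory complexes III and IV and ATP synthase were examined as 1 group of genes in red cell precursors of ddx41 mutant zebrafish. The members were all rows of the count table whose gene symbol begins, in any letter case, with uqcr, cox4, cox5, cox6, cox7, cox8, atp5, mt-co, mt-cyb or mt-atp. That rule found 52 of 32105 rows. Of these, 46 belong to nuclear genes, 8 of complex III, 18 of complex IV and 20 of ATP synthase, and 6 belong to genes of the mitochondrial genome. The rule goes by name, so it holds the ATP synthase inhibitors and the assembly factor COX7A2L, and it leaves out CYC1 and the NDUFA4 genes.

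The libraries hold polyadenylated RNA of gata1-positive cells sorted as erythroid from embryos at 40 hours post fertilization. There were 3 libraries of ddx41 mutants (replicates 2, 3 and 4) and 4 of their siblings (replicates 1, 3, 4 and 5). Red cell development depends on the transcription factor Gata1, and Ddx41 is an RNA helicase of the DEAD-box family. The labels give neither the ddx41 allele nor the genotype of the siblings, nor do they say how many embryos a library holds or whether replicates are different clutches. The p-values therefore cover only the spread among these libraries, which may be technical.

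Complex III passes electrons from ubiquinol to cytochrome c, complex IV (cytochrome c oxidase) passes them on to oxygen, and both pump protons across the inner mitochondrial membrane. ATP synthase lets the protons flow back and makes ATP in its F1 head. All of these machines mix subunits made in the cytosol from nuclear genes with a few core subunits made inside the mitochondrion from its own genome. Fish red cells keep their nucleus and their mitochondria, and red cell precursors also need mitochondria for haem synthesis.

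Total counts ran from 11814324 to 14363255 per library. Erythroid markers were abundant in both groups, and their summed level was 28080 to 53990 CPM (counts scaled to a fixed library total) in mutants, against 66430 to 87930 CPM in siblings. That sum leaned on the globin row hbae3, with 31470, 24550 and 12830 CPM in mutants and 44080, 54720, 45760 and 39980 CPM in siblings. This row was 2.01-fold lower, and it did not pass when any 1 sibling or mutant replicate 3 was left out. Of 11 tested marker rows 1 rose (9.09%, against 8.87% of all tested genes) and 2 fell (18.2%, against 7.69%). When sibling replicate 1, 3 or 4 was left out, 1 fell. Besides hbae3, klf17 fell, with 159.9, 150.5 and 91 CPM in mutants and 485.9, 440.1, 515 and 307.3 CPM in siblings. The fall of klf17 was 3.27-fold and passed without any 1 of the 7 libraries. The row that rose, SLC4A1 ENSDARG00000024560, averaged 195.4 CPM in mutants and 51.8 CPM in siblings. The list names 1 such gene, and both rows with its symbol were taken. The more abundant row, ENSDARG00000012881, averaged 7970 CPM in mutants and 11000 CPM in siblings, apart but not past the test. Fold changes were positive at the 1 row that rose and negative at 10. Skeletal muscle markers summed to 57.4 to 61.7 CPM in mutants and 67.6 to 135.5 CPM in siblings. Of their 14 rows 6 were lower (42.9%, against 7.69% of all tested genes) and none was higher. Of these rows 3 were lower when sibling replicate 1 or mutant replicate 2 was left out. Macrophage and leukocyte markers summed to 402.4 to 758.1 CPM in mutants and 789.3 to 1557 CPM in siblings. Of their 12 tested rows 4 were lower (33.3%, against 7.69% of all tested genes) and 1 was higher (8.33%, against 8.87%). Several of these rows share the symbol MFAP4, and the sum leaned on MFAP4 ENSDARG00000088745. That row had 85.1, 38.6 and 80.2 CPM in mutants and 745.5, 393.2, 204.9 and 237.3 CPM in siblings. The row ctss2.2 had 5.25, 3.3 and 6.47 CPM in mutants and 20.8, 19, 9.13 and 17.6 CPM in siblings. It was 3.31-fold lower and passed without any 1 of the 7 libraries. Of the 12 rows 2 were lower when sibling replicate 1 or mutant replicate 2 or 3 was left out, and 7 when mutant replicate 4 was. The higher row was SPI1, with 81.15, 78.6 and 134 CPM in mutants and 63.0, 53.3, 56.7 and 47.8 CPM in siblings. None of the 12 rows was higher when sibling replicate 3 or 5 or mutant replicate 4 was left out. The muscle marker pvalb1 had no count in ddx41 mutant replicate 2, and an untested row of MFAP4 had none in ddx41 mutant replicate 3. In bulk RNA, fewer cells of a type and less RNA per cell cannot be told apart. The part of these cell markers in the results below was not tested. The labels were not checked on the ddx41 transcript, which is not analysed here.

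Most members were higher in ddx41 mutants. All 52 passed the filter on low counts, and 38 rose, 1 fell and 13 did not pass at a Benjamini-Hochberg adjusted p under 0.05 in the quasi-likelihood test of edgeR over all 18565 tested genes. Among all tested genes, 8.87% passed as higher and 7.69% as lower. The members' median log2 fold change was 0.87, against 0.04 over all tested genes. At 40 members every mutant lay above every sibling, which 14.6% of all tested genes show. In nuclear members the median log2 fold change was 0.81 for complex III (6 of 8 rose), 0.92 for complex IV (11 of 18 rose and 1 fell) and 0.92 for ATP synthase (17 of 20 rose). Among the mitochondrially encoded members it was 0.82, and 4 of 6 rose.

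**Figure D1:**
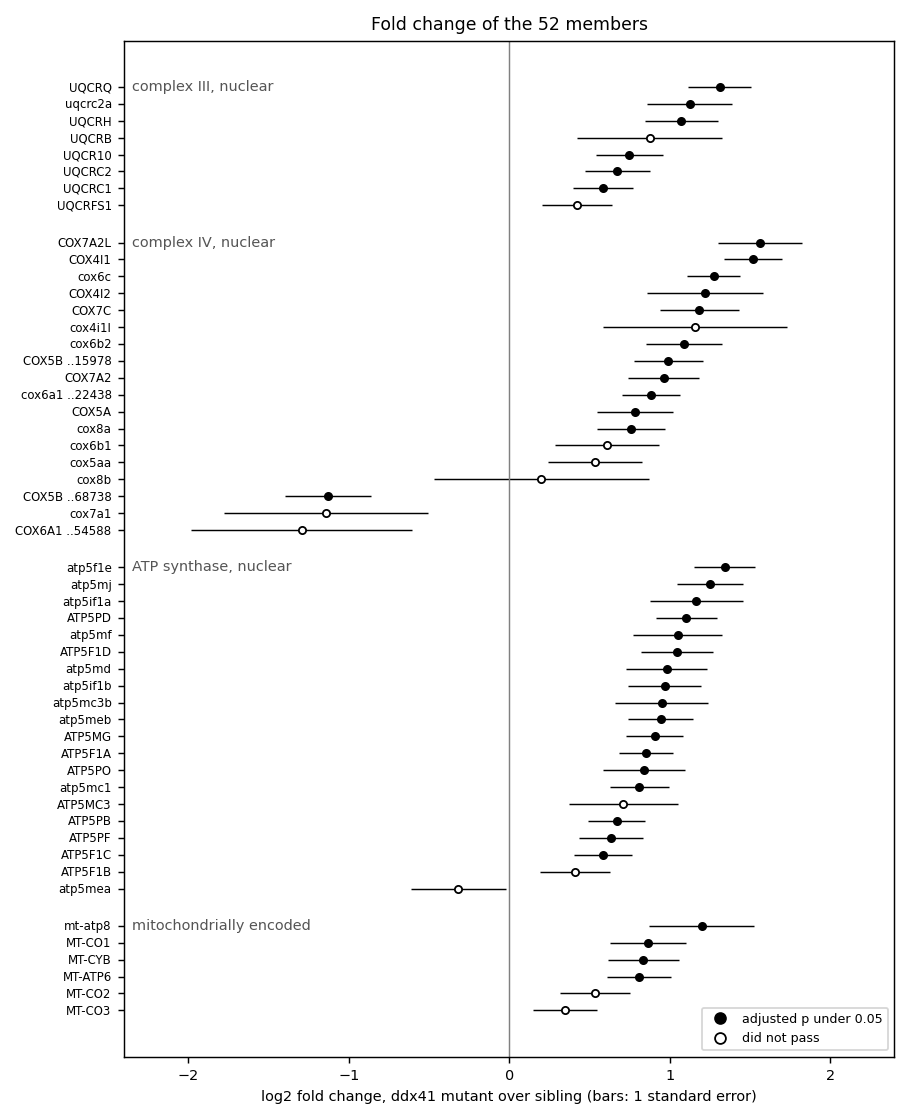
Log2 fold change of each of the 52 members, ddx41 mutants over siblings, with bars of 1 standard error, ordered by size within the nuclear members of each complex and the mitochondrially encoded members; filled points passed edgeR's test. Nearly all points lie right of 0, and of the 4 on the left only 1, a COX5B row, passed.

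The nuclear members were split at a mean of 20 CPM, a level chosen with the values known. Of the 36 with at least that mean over all libraries, 32 rose, with folds of 1.33 to 2.96 over the 36, while 14.5% of all tested genes in that range rose. Of the 10 nuclear members below it, 2 rose, 1 fell and 7 did not pass, while 6.69% of all tested genes in that range rose. The mean over all libraries includes the mutants, so the counts on each side of the split depend in part on the rise itself. COX7A2L, uqcrc2a and atp5md, which rose, reached 20 CPM only through the mutants. Their sibling means were 13.86, 14.97 and 19.22 CPM. A split on the sibling mean was not made, and the difference between the abundant and the scarce members was not tested. Leaving out ddx41 mutant replicate 2 left 16 members that rose, leaving out sibling replicate 4 left 23, leaving out sibling replicate 5 left 24, and each of the other libraries left at least 30. In those 3 fits, 5.2%, 6.37% and 7.31% of all tested genes passed as higher, and in the fits without sibling replicates 1 and 3 and ddx41 mutant replicates 3 and 4 it was 6.83%, 6.86%, 6.9% and 7.66%. With every library and also without each of the 7 in turn, 15 members passed, 14 of them higher in mutants.

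**Figure D2:**
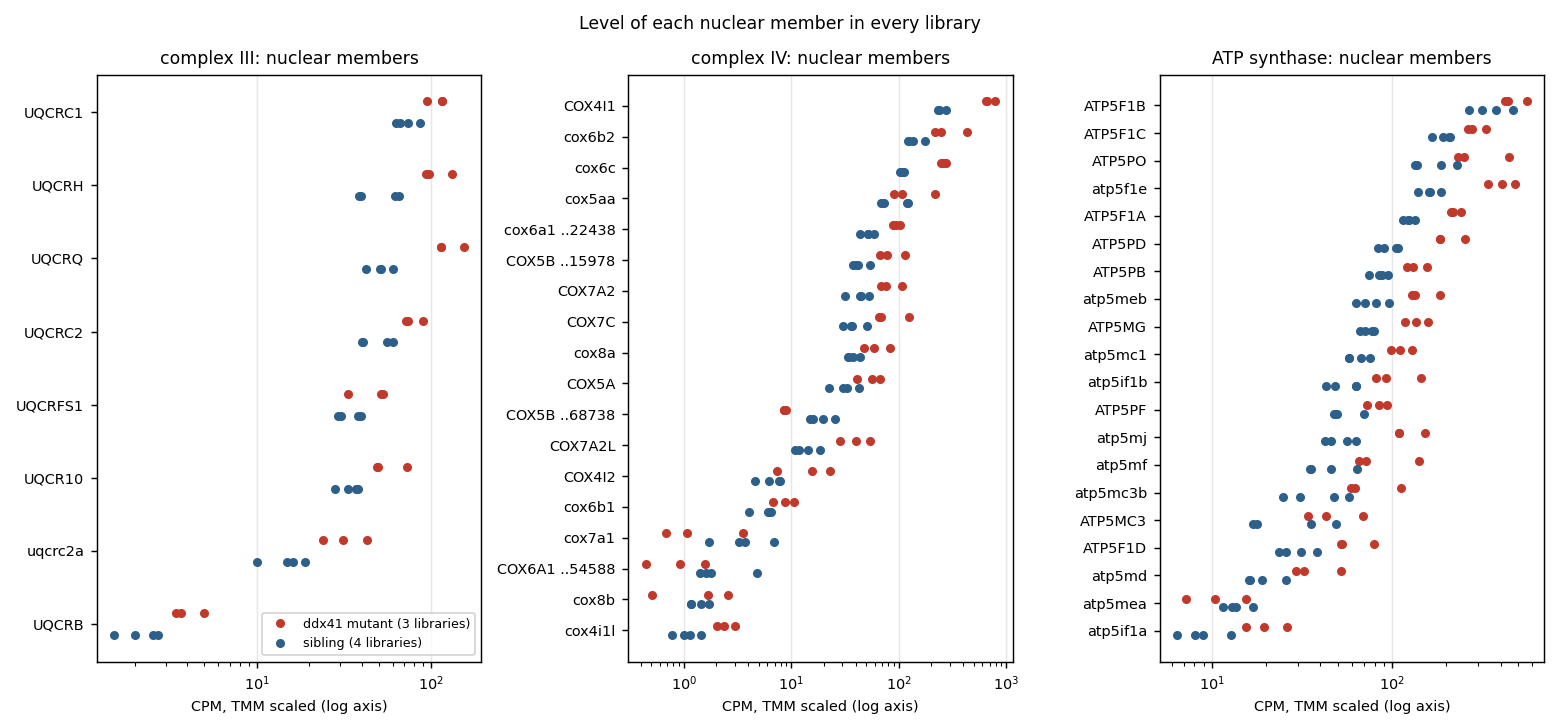
CPM of the 46 nuclear members in each library on a log axis, with ddx41 mutants (3 libraries) above siblings (4 libraries) in each row; gene IDs are shortened to their last 5 digits where 2 rows share a symbol. The groups are apart in most abundant rows and overlap in several of the rows near 1 CPM, such as cox8b.

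In complex III, the small subunits UQCRQ and UQCRH and the core protein gene uqcrc2a led the rise. UQCRQ, a small membrane subunit near the ubiquinone site, had 153.6, 113.8 and 113 CPM in ddx41 mutant replicates 2, 3 and 4, against 50.8, 60.3, 51.2 and 42.4 CPM in sibling replicates 1, 3, 4 and 5. The groups were far apart, and the level was 2.48-fold higher (log2 1.31 ± 0.19 SE, edgeR adjusted p = 0.000382). UQCRH, the acidic hinge protein that sits beside cytochrome c1, had 131.7, 97.6 and 93.7 CPM in mutants and 61.9, 64.9, 39.7 and 38.3 CPM in siblings, in the same order of replicates. It was 2.10-fold higher (edgeR adjusted p = 0.00509), with siblings 1 and 3 above siblings 4 and 5.

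The core proteins of complex III face the matrix and hold the complex together. Of these, uqcrc2a had 42.9, 31.2 and 24 CPM in mutants and 18.9, 16.2, 14.8 and 9.99 CPM in siblings, 2.18-fold higher (edgeR adjusted p = 0.00919). UQCRC2, the other row of this subunit, was 1.60-fold higher, and UQCRC1 was 1.5-fold higher (adjusted p 0.0335 and 0.0427). The small subunit gene UQCR10 had 73, 48.9 and 49.7 CPM in mutants and 36.8, 38.1, 33.1 and 28.2 CPM in siblings, 1.68-fold higher (edgeR adjusted p = 0.0229). In all of these rows every mutant was above every sibling. The Rieske iron-sulfur protein gene UQCRFS1 had 33.3 to 52.7 CPM in mutants and 29.1 to 39.5 CPM in siblings and did not pass (1.34-fold, adjusted p = 0.213). UQCRB, a small matrix-side subunit, was scarce at 3.43 to 4.99 CPM in mutants and 1.52 to 2.71 CPM in siblings, and it did not pass although the groups were apart (adjusted p = 0.212).

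Several complex III calls did not hold when 1 library was left out. With ddx41 mutant replicate 2 left out, uqcrc2a, UQCRC1, UQCRC2 and UQCR10 no longer passed (edgeR adjusted p 0.0735, 0.152, 0.158 and 0.164). UQCR10 and UQCRC2 did not pass without sibling replicate 4 (0.0701 and 0.122) or 5 (0.0758 and 0.109), nor did UQCRC2 without mutant replicate 3 (0.0531). Leaving out mutant replicate 4 gave UQCRC1 an adjusted p of 0.0811, and leaving out sibling replicates 3, 4 and 5 gave 0.138, 0.107 and 0.136. It was also 0.0619 with RLE size factors, 0.0539 with upper quartile scaling and 0.0810 with no filter on low counts. UQCRQ and UQCRH passed without any 1 of the 7 libraries.

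Among the nuclear members, the largest folds were those of COX7A2L (2.96), counted with complex IV by its name, and of the complex IV gene COX4I1 (2.87). Next came atp5f1e of ATP synthase (2.53) and UQCRQ of complex III (2.48), ahead of cox6c of complex IV (2.42). COX4I1, the largest nuclear-encoded subunit and a site of regulation by ATP, had 793.6, 663.1 and 650.6 CPM in ddx41 mutants, against 272.7, 230.6, 238.2 and 237.4 CPM in siblings. Both groups were tight and lay far apart (log2 fold change 1.52 ± 0.18 SE, edgeR adjusted p = 5.02e-05). The small membrane subunit gene cox6c had 274.5, 245.6 and 260.9 CPM in mutants and 105.1, 103.5, 110.8 and 111.4 CPM in siblings (log2 1.27 ± 0.17 SE, edgeR adjusted p = 0.000142). Its spread within each group was small beside the distance between them. Both genes passed without any 1 of the 7 libraries, with cox6c between 1.23 and 1.27 on the log2 scale in these fits.

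The other rows of COX4 were much less abundant. COX4I2, an isoform known in mammals from lung and from low oxygen, had 23.2, 15.5 and 7.36 CPM in mutants and 4.64, 7.67, 7.82 and 6.21 CPM in siblings. Its groups overlapped, because ddx41 mutant replicate 4 lay below siblings 3 and 4, and it was 2.33-fold higher (edgeR adjusted p = 0.0317). It did not pass without ddx41 mutant replicate 2 (adjusted p = 0.231) or 3 (0.0737), nor without sibling replicate 1, 3, 4 or 5 (0.0844, 0.0517, 0.0533 and 0.0658), nor with limma-voom (0.0717). The gene cox4i1l had 3, 2.38 and 2.03 CPM in mutants and 1.45, 1.01, 1.15 and 0.785 CPM in siblings. These groups did not overlap, and the row did not pass at so low a count (adjusted p = 0.192).

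COX6A and COX6B subunits lie at the contact of the paired enzyme. The row of cox6a1 with ID ENSDARG00000022438 had 102.4, 88.3 and 94.9 CPM in mutants and 51.3, 59, 52.3 and 44 CPM in siblings, 1.84-fold higher (edgeR adjusted p = 0.00383). A second row with the symbol COX6A1, ENSDARG00000054588, had 1.58, 0.921 and 0.444 CPM in mutants and 4.78, 1.78, 1.61 and 1.43 CPM in siblings. It did not pass (adjusted p = 0.227), and its groups overlapped. The abundant isoform gene cox6b2 had 427.9, 245.5 and 217.2 CPM in mutants and 122.8, 174.6, 123.7 and 136.7 CPM in siblings, 2.13-fold higher (adjusted p = 0.00566, and 0.0526 without ddx41 mutant replicate 2). Its partner cox6b1 had 8.83, 6.76 and 10.6 CPM in mutants and 6.51, 6.12, 4.07 and 6.21 CPM in siblings, apart but not past the test (adjusted p = 0.230).

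The COX5 families held the only member that fell. Both COX5A and COX5B proteins sit on the matrix side of the enzyme, and COX5B carries a zinc ion. The COX5B row ENSDARG00000068738 had 9, 8.6 and 8.63 CPM in ddx41 mutants, against 19.6, 25.8, 16.1 and 15.1 CPM in siblings. Mutants were nearly alike and all below the siblings (2.19-fold lower, log2 -1.13 ± 0.27 SE, edgeR adjusted p = 0.00965). The COX5B row ENSDARG00000015978 had 113.9, 66.9 and 77.3 CPM in mutants and 41.7, 53.6, 37.7 and 40.2 CPM in siblings, 1.99-fold higher (adjusted p = 0.00581). The fall passed without any 1 of the 7 libraries (adjusted p up to 0.0365), while the rise did not pass without ddx41 mutant replicate 2 (0.0533). The name table does not tell these COX5B copies apart, and reads of similar copies may be shared between them in counting.

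The COX5A rows did not separate as clearly. COX5A had 67.7, 41.1 and 57 CPM in mutants and 42.5, 33, 30.4 and 22.6 CPM in siblings. It was 1.72-fold higher (edgeR adjusted p = 0.0354), although ddx41 mutant replicate 3 lay below sibling replicate 1. The adjusted p was 0.180 without ddx41 mutant replicate 2, 0.0641 without replicate 4, and 0.0786, 0.0968 and 0.104 without sibling replicates 3, 4 and 5. The more abundant cox5aa had 218, 91.4 and 106.3 CPM in mutants and 121.1, 120.2, 72.9 and 68.7 CPM in siblings. Only ddx41 mutant replicate 2 stood above the siblings, and the row did not pass (adjusted p = 0.242).

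Among COX7 and COX8, the row with the largest fold of all members was COX7A2L, which is known in mammals as a factor that joins complexes III and IV into supercomplexes. It had 40.1, 28.4 and 54.4 CPM in mutants, against 10.9, 18.6, 14.2 and 11.7 CPM in siblings. That is 2.96-fold higher (log2 1.57 ± 0.26 SE, edgeR adjusted p = 0.000959), and it passed without any 1 of the 7 libraries. COX7C, a small membrane subunit, was 2.27-fold higher (adjusted p = 0.00452). COX7A2, the isoform that most mammalian tissues use, had 108.5, 68 and 75.4 CPM in mutants and 44.2, 52.6, 31.7 and 43.8 CPM in siblings. It was 1.95-fold higher (adjusted p = 0.00783, and 0.0651 without ddx41 mutant replicate 2).

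The muscle isoform gene of the same subunit did not pass. The gene cox7a1, whose product is the heart and muscle form in mammals, had 3.58, 0.691 and 1.08 CPM in mutants and 3.74, 1.71, 3.3 and 6.92 CPM in siblings. Its groups overlapped (log2 -1.14 ± 0.63 SE, edgeR adjusted p = 0.245). Its log2 value was -2.13 without ddx41 mutant replicate 2. Of the 14 skeletal muscle marker rows 6 fell (42.9%, against 7.69% of all tested genes). Among them were actc1b at 3.10-fold lower and myhz2 at 4.52-fold lower (edgeR adjusted p 0.00507 and 0.00649). Of the 8 that did not pass, 2 had a positive fold change, TNNT3 ENSDARG00000068457 at 1.61-fold and ACTA1 ENSDARG00000036371 at 1.79-fold (adjusted p 0.110 and 0.305). The part of muscle RNA in the level of cox7a1 was not tested. The smallest subunit gene cox8a had 82.2, 47.7 and 59.5 CPM in mutants and 37.3, 43.8, 33.6 and 34.6 CPM in siblings, 1.69-fold higher (adjusted p = 0.0241). It did not pass without ddx41 mutant replicate 2 (0.177) or sibling replicate 1, 4 or 5 (0.0561, 0.0826 and 0.0680). Its isoform cox8b had 2.58, 1.69 and 0.508 CPM in mutants and 1.18, 1.16, 1.46 and 1.71 CPM in siblings, with no direction that held (adjusted p = 0.875).

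In ATP synthase, 17 of 20 nuclear members rose, 3 did not pass, and the groups were apart at 17. The F1 head makes ATP in alpha and beta subunits around the turning gamma, delta and epsilon shaft. The epsilon gene atp5f1e had 481.6, 409 and 341.1 CPM in ddx41 mutants, against 159.6, 187.6, 139.2 and 161.4 CPM in siblings. It was 2.53-fold higher (log2 1.34 ± 0.19 SE, edgeR adjusted p = 0.000271). ATP5F1D (delta) was 2.06-fold higher, ATP5F1A (alpha) 1.80-fold and ATP5F1C (gamma) 1.5-fold (adjusted p 0.0055, 0.00325 and 0.0375). ATP5F1B, which encodes the catalytic beta subunit, had 559.2, 437.7 and 420.2 CPM in mutants, and 265.9 to 467.6 CPM in siblings. Its groups overlapped and it did not pass (1.33-fold, adjusted p = 0.223).

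Within the F1 head, the calls of atp5f1e, ATP5F1A and ATP5F1D held without any 1 of the 7 libraries. ATP5F1C lost its call without ddx41 mutant replicate 2 or 3 (edgeR adjusted p 0.185 and 0.0631) and without sibling replicate 1, 3, 4 or 5 (0.0631, 0.117, 0.0955 and 0.137). It also did not pass with RLE size factors (0.0608) or with no filter (0.0779).

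All 4 peripheral stalk genes rose, the part that holds the F1 head still against the turning ring. ATP5PD (subunit d) had 252.8, 184.8 and 184 CPM in mutants and 107.6, 105.2, 89.7 and 83.2 CPM in siblings, 2.15-fold higher (log2 1.1 ± 0.19 SE, edgeR adjusted p = 0.00117). ATP5PO (the oligomycin sensitivity protein) was 1.79-fold higher, ATP5PB (subunit b) 1.59-fold and ATP5PF (coupling factor 6) 1.55-fold (adjusted p 0.0351, 0.0195 and 0.0409). In each of these the groups did not overlap, and ATP5PO was close, with 231 CPM in ddx41 mutant replicate 3 and 230.1 CPM in sibling replicate 3. ATP5PD passed without any 1 of the 7 libraries. Without ddx41 mutant replicate 2, ATP5PB, ATP5PF and ATP5PO had edgeR adjusted p values of 0.119, 0.167 and 0.261. Without sibling replicates 4 and 5, these were 0.0680 and 0.0763 for ATP5PB, 0.135 and 0.116 for ATP5PF, and 0.120 and 0.108 for ATP5PO. ATP5PF and ATP5PO did not pass without sibling replicate 1 (0.102 and 0.0645), nor ATP5PF without ddx41 mutant replicate 4 (0.0655), with RLE size factors (0.0556), with upper quartile scaling (0.0541) or with no filter (0.0600).

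The ring of c subunits, which turns as protons pass, is encoded by several genes for 1 mature protein. Of these, atp5mc1 had 98.8 to 129.6 CPM in mutants and 57.4 to 75.7 CPM in siblings, 1.75-fold higher (edgeR adjusted p = 0.00794, and 0.0556 without ddx41 mutant replicate 2). The gene atp5mc3b had 111.9, 62 and 58.8 CPM in mutants and 47.6, 57.4, 30.8 and 24.8 CPM in siblings, 1.93-fold higher (adjusted p = 0.0369). It did not pass without ddx41 mutant replicate 2 (0.244) or sibling replicate 1, 4 or 5 (0.0513, 0.113 and 0.0994). ATP5MC3 had 68.8, 34.1 and 43.2 CPM in mutants and 48.6, 35.6, 17 and 17.8 CPM in siblings. Siblings 1 and 3 lay within the mutant range, and the row did not pass with all libraries (adjusted p = 0.178) but did without sibling replicate 1 (0.0498).

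Of the 6 small membrane subunits, 5 rose. These subunits (e, f, g and others) shape the membrane and join ATP synthase into rows of dimers. The gene atp5mj had 151.4, 109.5 and 109.4 CPM in mutants and 55.9, 63.2, 45.9 and 42.3 CPM in siblings, 2.38-fold higher (log2 1.25 ± 0.20 SE, edgeR adjusted p = 0.000797). ATP5MG (subunit g) had 158, 118.6 and 136.4 CPM in mutants and 70.9, 77.1, 79.2 and 66.7 CPM in siblings, 1.87-fold higher (edgeR adjusted p = 0.00307). Both were clearly apart and passed without any 1 of the 7 libraries. The genes atp5mf and atp5md were 2.07-fold and 1.98-fold higher (adjusted p 0.0185 and 0.0155), but they did not pass without ddx41 mutant replicate 2 (0.164 and 0.128) or sibling replicate 4 (0.0657 and 0.0563), nor did atp5mf without sibling replicate 5 (0.0556).

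Of the 2 subunit e genes, 1 passed. The gene atp5meb had 185.3, 129.6 and 134.6 CPM in mutants and 81.8, 96.3, 70.6 and 62.8 CPM in siblings, 1.92-fold higher (edgeR adjusted p = 0.00555). It passed without any 1 of the 7 libraries. Its partner atp5mea had 15.4, 7.22 and 10.5 CPM in mutants and 13.6, 16.9, 13 and 11.6 CPM in siblings. Those groups overlapped, and the row did not pass (log2 -0.32 ± 0.30 SE, adjusted p = 0.519). The inhibitory factor genes atp5if1a and atp5if1b, whose product stops the enzyme from splitting ATP, were 2.24-fold and 1.96-fold higher (adjusted p 0.0127 and 0.00928). Their adjusted p values were 0.0864 and 0.0834 when ddx41 mutant replicate 2 was left out.

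Many of these subunits have paralogs, and the share of each pair taken by its first gene shows whether the mixture of isoforms moved. For COX5B, the row ENSDARG00000015978 took 92.7%, 88.6% and 90.0% of the pair's CPM in ddx41 mutants, against 68.0%, 67.5%, 70.1% and 72.7% in siblings. No mutant came near a sibling. For subunit e, atp5meb took 92.3%, 94.7% and 92.8% in mutants, against 85.8%, 85.1%, 84.5% and 84.4% in siblings, again with the groups apart. For cox6a1 the row ENSDARG00000022438 took 98.5% to 99.5% in mutants and 91.5% to 97.1% in siblings, also apart. In the other 8 of the 11 pairs the groups overlapped, as for COX4I1 against COX4I2, with 97.2% to 98.9% in mutants and 96.8% to 98.3% in siblings. The levels of 27.5% of all tested genes kept the groups apart in either direction. The part of the 11 pairs that kept them apart is near that share. These shares come from CPM not divided by transcript length, the pairs were set with the values known, and their differences were not tested beyond the rows themselves.

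**Figure D3:**
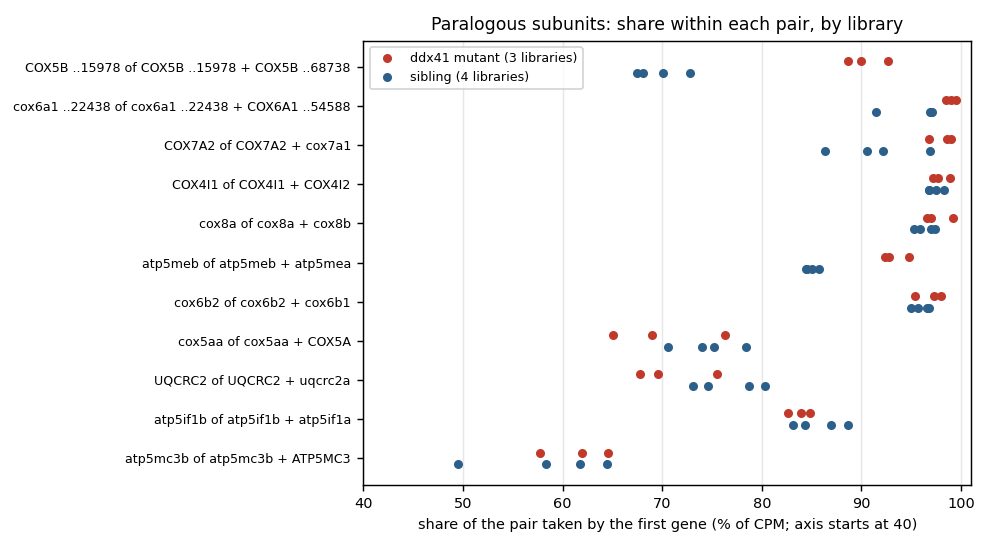
Share of a pair's CPM taken by its first gene in each library, for 11 pairs of paralogous subunits, with ddx41 mutants above siblings; the axis starts at 40%. The pairs of COX5B, cox6a1 and atp5meb keep the groups apart, and in the other 8 the groups overlap. The levels of 27.5% of all tested genes keep the groups apart in either direction.

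The 6 members of the mitochondrial genome encode membrane subunits: cytochrome b of complex III, the 3 core subunits of complex IV, and subunits a and 8 of the membrane part of ATP synthase. MT-CYB had 3174, 3567 and 4445 CPM in ddx41 mutants, against 1582, 1959, 2396 and 2426 CPM in siblings (1.78-fold higher, edgeR adjusted p = 0.0184). MT-CO1, which holds the site where oxygen is reduced, had 12640, 10010 and 12070 CPM in mutants and 4563, 7719, 6378 and 6792 CPM in siblings (1.82-fold, adjusted p = 0.0206). MT-ATP6, the proton channel subunit, had 2644, 1838 and 2380 CPM in mutants and 1376, 1401, 1220 and 1232 CPM in siblings (1.75-fold, adjusted p = 0.0123). In all of these the lowest mutant was above the highest sibling.

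The other mitochondrial members were less even. MT-CO2 had 4370, 3710 and 4878 CPM in mutants and 2224, 3241, 3115 and 3363 CPM in siblings, and MT-CO3 had 5043, 4521 and 5383 CPM in mutants and 3521, 4003, 4119 and 4052 CPM in siblings. Both were apart but did not pass (1.45-fold and 1.27-fold, edgeR adjusted p 0.112 and 0.269), and with library totals as the only scaling MT-CO2 passed (0.0402). The short mt-atp8 had 215.4, 321.1 and 520.8 CPM in mutants and 105.2, 90.1, 224.8 and 194.5 CPM in siblings. It was 2.29-fold higher (adjusted p = 0.0205), with ddx41 mutant replicate 2 below sibling replicate 4. In vertebrates the reading frames of ATP8 and ATP6 overlap, so their counts may share reads.

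Which mitochondrial members passed changed with the library left out. Of the 6, 1 rose without sibling replicate 1, where MT-CYB, MT-CO1 and mt-atp8 had edgeR adjusted p values of 0.0707, 0.0810 and 0.0650. Without sibling replicate 3, MT-CYB and mt-atp8 did not pass (0.0812 and 0.0630). MT-CO1 and MT-ATP6 did not pass without sibling replicate 4 (0.0898 and 0.0669), sibling replicate 5 (0.0631 and 0.0559) or ddx41 mutant replicate 2 (0.0897 and 0.0797). Nor did mt-atp8 pass without ddx41 mutant replicate 4 (0.0911). The group's median log2 fold change stayed between 0.73 and 0.86 in these 7 fits.

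**Figure D4:**
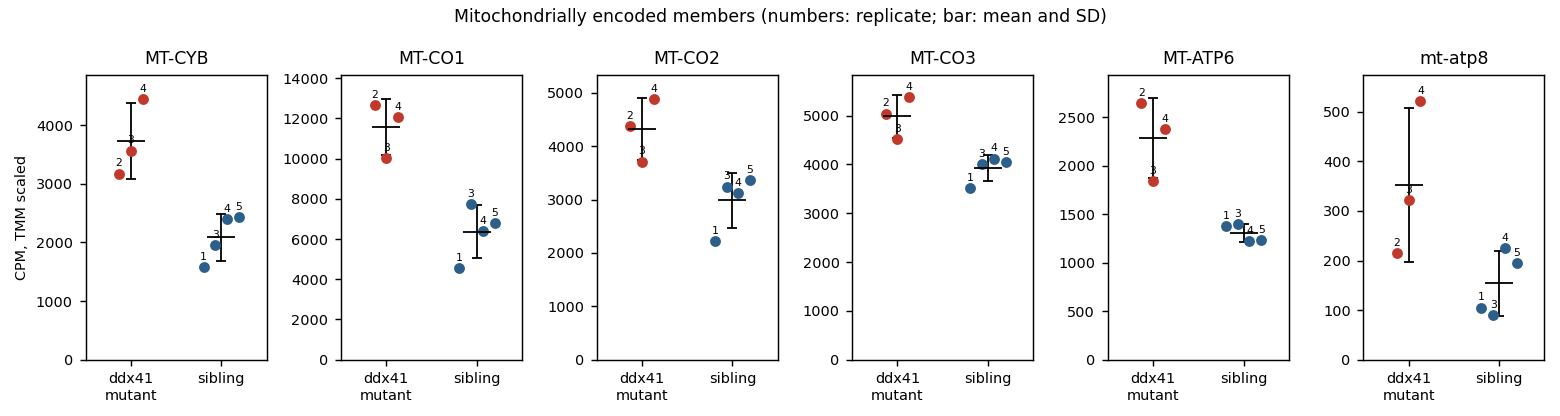
CPM of the 6 mitochondrially encoded members in each library, ddx41 mutants left of siblings, with replicate numbers beside the points and bars for the mean and SD. The groups are apart at 5 genes and overlap at mt-atp8, and sibling replicate 1 is lowest of all libraries at MT-CYB, MT-CO1, MT-CO2 and MT-CO3.

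The nuclear and the mitochondrial members as sums were both higher in mutants, and were highest in different mutant libraries. The nuclear members summed to 6892, 4934 and 5039 CPM in ddx41 mutant replicates 2, 3 and 4, against 3222, 3336, 2689 and 2544 CPM in sibling replicates 1, 3, 4 and 5. Their mean sum was 5622 ± 1101 CPM in mutants (SD, n = 3) and 2948 ± 390 CPM in siblings (SD, n = 4), a ratio of 1.91. The mitochondrial members summed to 28090, 23960 and 29680 CPM in mutants and 13370, 18410, 17450 and 18060 CPM in siblings. Their mean sum was 27240 ± 2951 CPM in mutants (SD, n = 3) and 16820 ± 2336 CPM in siblings (SD, n = 4), a ratio of 1.62. Neither sum overlapped between groups.

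Among the mutants, replicate 2 was highest at 42 of 46 nuclear members (91.3%), while it was highest at 29.3% of all tested genes. Replicate 4 was highest at 4 of 6 mitochondrial members, and at 37.9% of all tested genes. Among the siblings, replicate 3 was highest at 27 of the nuclear members (58.7%, against 23.9% of all tested genes). Sibling replicate 5 was lowest at 24 of them (52.2%, against 26.5%). Sibling replicate 1 was lowest at 4 of the mitochondrial members (66.7%, against 25.5%). The sum of mitochondrial over nuclear members was 4.08, 4.86 and 5.89 in mutants, and 4.15, 5.52, 6.49 and 7.10 in siblings, so that ratio overlapped. Without ddx41 mutant replicate 2 the median log2 fold change was 0.69 for nuclear and 0.74 for mitochondrial members, against 0.89 and 0.82 with it.

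**Figure D5:**
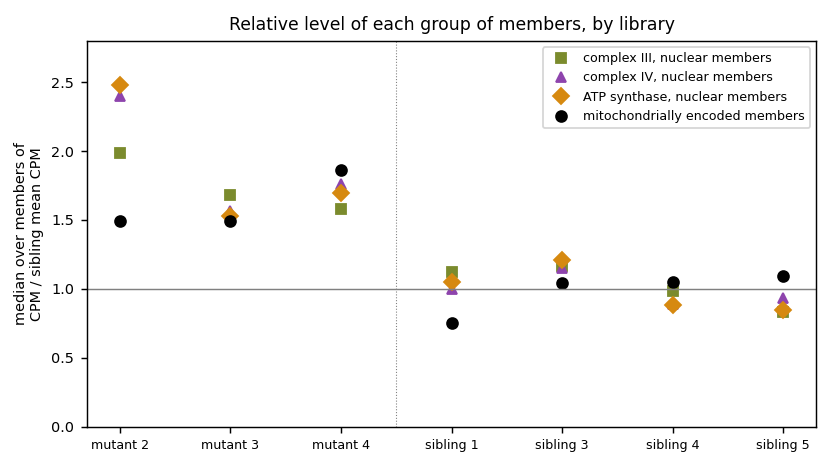
Median over members of CPM divided by the sibling mean CPM, for the nuclear members of each complex and the mitochondrially encoded members, in each of the 3 ddx41 mutant and 4 sibling libraries. Mutant replicate 2 stands at 1.99 to 2.48 for nuclear and 1.49 for mitochondrial members, and every mutant value lies above every sibling value.

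Partners of these complexes under other names were set beside them. Of 6 tested rows 1 rose (16.7%, where 8.87% of all tested genes rose), and all 6 fold changes were positive. The row that rose was cycsb, a gene of cytochrome c, with 185.6, 93 and 132.3 CPM in mutants and 80.1, 105.2, 70.8 and 64.5 CPM in siblings (1.71-fold, edgeR adjusted p = 0.0381). The groups overlapped at sibling replicate 3, and it did not pass without sibling replicate 1, 4 or 5 (0.0815, 0.116 and 0.112) or ddx41 mutant replicate 2 (0.247). CYC1, the cytochrome c1 of complex III, had 50.1 to 63 CPM in mutants and 27.7 to 52.9 CPM in siblings and did not pass (1.32-fold, adjusted p = 0.243). NDUFA4, a subunit of complex IV despite its name, was 1.48-fold higher with an adjusted p of 0.0567, and it passed without sibling replicate 1 (0.0359). For ndufa4b, picked here after its values were seen, the fold was 1.34 (adjusted p = 0.374). The other cytochrome c gene, cycsa, had a count in 1 library.

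Of 34 assembly factors of the 3 complexes, 4 rose (11.8%, against 8.87% of all tested genes) and none fell, and their log2 fold changes had a median of 0.59. The complex III factor ttc19 had 17.8, 10.1 and 15.5 CPM in mutants and 2.84, 0.775, 2.38 and 1.86 CPM in siblings (7.32-fold higher, edgeR adjusted p = 0.000275), and atpaf1, which helps to build the F1 head, was 2.55-fold higher (adjusted p = 0.0023). COX18 and lyrm7, picked here after their values were seen, also rose. COX18 did not pass without ddx41 mutant replicate 2 (0.107), a fit in which 2 assembly genes rose. The call of lyrm7 was lost in 6 of the 7 fits that leave out 1 library: its adjusted p was 0.290 and 0.0589 without mutant replicates 2 and 4, and 0.0763, 0.0690, 0.101 and 0.102 without sibling replicates 1, 3, 4 and 5. When mutant replicate 3 was left out 7 assembly genes rose, and when mutant replicate 4 was left out 1 fell. Of 8 tested complex II genes 2 rose (25%), SDHC (1.61-fold, adjusted p = 0.0318) and SDHAF4 (1.75-fold, 0.0416), and none fell. None passed without ddx41 mutant replicate 2 or sibling replicate 1 or 4, and 1 passed without ddx41 mutant replicate 4 or sibling replicate 3 or 5.

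The list of mitochondrial biogenesis regulators holds nuclear transcription factors and coactivators, and factors that copy and transcribe mitochondrial DNA. Of its 23 genes 5 rose (21.7%, against 8.87% of all tested genes) and 2 fell (8.70%, against 7.69%). Their median on the log2 scale was 0.05, and -0.065 without ddx41 mutant replicate 2. NRF1, a transcription factor of respiratory genes, had 29.7, 34.5 and 23.6 CPM in ddx41 mutants, against 50.5, 53.6, 52.8 and 49.8 CPM in siblings (1.77-fold lower, edgeR adjusted p = 0.0103). The mitochondrial terminator family gene mterf3 was 2.42-fold lower (adjusted p = 0.00567). PPARGC1A, ppargc1b and ESRRA, picked here after their values were seen, encode coactivators of respiratory genes and a receptor they bind. They were 3.17-fold, 1.59-fold and 2.2-fold higher (adjusted p 0.0306, 0.0422 and 0.0426), at 8.08, 63.6 and 8.38 CPM in mutants and 2.55, 39.9 and 3.81 CPM in siblings on average. Of the fits that leave out 1 library, PPARGC1A passed only without sibling replicate 1 or ddx41 mutant replicate 2. The genes ppargc1b and ESRRA passed only without ddx41 mutant replicate 3. Also higher, and picked here after their values were seen, were gabpb2a and a YY1 row, ENSDARG00000042796. They were 1.84-fold and 1.51-fold higher (edgeR adjusted p 0.0116 and 0.0456), with the groups apart. The gene gabpb2a passed without any 1 of the 7 libraries, and this YY1 row passed only without ddx41 mutant replicate 4. A further YY1 row, ENSDARG00000027978, was 1.58-fold lower and did not pass. In all, 16 of the 23 did not pass, among them this YY1 row, pprc1 (1.04-fold, edgeR adjusted p = 0.883) and TFAM (1.37-fold lower, 0.127, groups apart). The number that rose was 3 with RLE size factors, and 2 with upper quartile scaling or with no filter on low counts. With 1 library left out, 3 regulators rose without ddx41 mutant replicate 3, 2 when mutant replicate 2 or 4 or sibling replicate 1 was left out, and 1 when sibling replicate 3, 4 or 5 was. NRF1 and mterf3 passed without any 1 of the 7 libraries.

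In the list for mitochondrial RNA processing and stability, 2 of 13 genes rose (15.4%, against 8.87% of all tested genes) and none fell (median log2 fold change 0.48). These were tbrg4, a FASTK-family gene, at 2.31-fold (edgeR adjusted p = 0.00589), and SUPV3L1, the helicase of mitochondrial RNA decay, at 2.49-fold (0.0107, and 0.0901 without ddx41 mutant replicate 2). The list of import and outer membrane genes also holds a matrix enzyme. Of its 25 genes 4 rose (16%) and none fell (median log2 fold change 0.36). TOMM5, a small subunit of the import pore, had 143.6, 110.7 and 90.6 CPM in mutants and 25.6, 33.3, 33.8 and 36.3 CPM in siblings (3.57-fold, adjusted p = 3.29e-05). The outer membrane channel gene VDAC1 was 1.93-fold higher (edgeR adjusted p = 0.00247), at 197.5 CPM in mutants and 102.1 CPM in siblings on average. VDAC2 and VDAC3, picked here after their values were seen, did not pass (edgeR adjusted p 0.713 and 0.324). The more abundant VDAC2 averaged 707.2 CPM in mutants and 774.2 CPM in siblings, and VDAC3 was 1.28-fold higher. Citrate synthase (CS), a matrix enzyme of the citric acid cycle picked here after its values were seen, had 151.1 to 171.5 CPM in mutants and 112.6 to 131.8 CPM in siblings and did not pass (1.28-fold, adjusted p = 0.170). These lists were set with earlier results of these data known, and their differences from the members were not tested.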

How the data were processed

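The authors deposited unnormalized counts for 7 libraries, with a row for each Ensembl gene ID, made from low-input libraries of sorted cells, per the labels' protocols. DESeq2, Cufflinks 2.2.1, Picard, STAR 2.4.2a, Trim Galore and the build GRCz10 are listed, without roles, per the submitters' processing notes. Which program counted the reads, with which annotation and strand setting, is not given in the sources used here. Overlapping genes and near copies may therefore share reads. Columns were matched to samples by title, and symbols came from a name table (26269 of 32105 rows).

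Counts were filtered with filterByExpr (minimum count 10, total 15; 18565 genes), scaled by TMM and tested with edgeR 4.0.16 (quasi-likelihood F-test, R 4.3.3) over all genes, with Benjamini-Hochberg adjustment at 0.05. CPM is TMM scaled. Standard errors come from the log2 fold change and its F statistic. Totals of 11814324 to 14363255 counts set the precision, with a common biological coefficient of variation of 0.377. The fit was also run on counts simulated gene by gene from its own means and dispersions. Those counts hold no shift shared by many genes of a library, so the run does not check the fit against such shifts. Replicates of a group differed beyond counting error, with a chi-square of 13.2 to 47.3 per degree of freedom. Levels were not divided by transcript length, so words such as abundant or scarce refer to CPM and not to numbers of transcripts. Members, lists and pairs were chosen with earlier results of these data known. Every member could be named, with values per library for mitochondrial members, the 4 smallest p of each complex, any member that fell and pairs with unlike outcomes. Also named were the 2 genes of smallest p in each other list, and CYC1, NDUFA4 and the cytochrome c genes. Erythroid and macrophage markers are given as sums and counts, apart from a few rows. Other genes named were picked after their values were seen. Alternatives were other scalings and filters, DESeq2 1.42.0, limma-voom (limma 3.58.1), a robust fit, each library left out and a replicate block.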

Additional observations from a re-analysis of the deposited data

Results flagged for a closer look

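At 3 of the 52 members, 1 sibling lay farther from the other siblings than the 95% limit of Dixon's test for 4 samples; chance alone marks about 1 group in 20. COX6A1 (ENSDARG00000054588) had 4.78 CPM in sibling replicate 1, against 1.43 to 1.78 CPM in the other siblings. ATP5PF, the coupling factor 6 gene, had 70.2 CPM in sibling replicate 3, against 47.5 to 49.5 CPM in the others, and all 3 mutants were above it, at 72.3 to 93.3 CPM. The isoform gene cox6b1 had 4.065 CPM in sibling replicate 4, against 6.12 to 6.51 CPM in the others.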

How the results depend on the processing

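With RLE or upper quartile scaling, library totals only, scaling without the mitochondrial genome rows, either other filter, DESeq2, limma-voom and the robust fit, 35 to 39 members rose and 1 fell, and no count of members moved by more than 1.5 times. Without 1 library, 16 to 35 members rose and 1 fell, 2 to 6 in complex III, 5 to 10 in complex IV, 7 to 16 in ATP synthase and 1 to 4 of the mitochondrial genome, and 1888 to 2835 genes passed in all. The log2 fold change of cox8b turned to -0.16 with limma-voom and -0.45 with the replicate block, ran from -0.34 (without ddx41 mutant replicate 2) to 0.63 (without ddx41 mutant replicate 4) with 1 library left out, and it passed in no fit; the cause was not tested. With the replicate block, 3 of 52 members rose (2 of complex IV, 1 mitochondrial, 0 of complex III and 0 of ATP synthase) and 0 fell. In that fit 1023 genes passed, 5.51% of all tested genes, so the members passed about as often as other genes. The median log2 fold change was 0.645 for nuclear and 0.663 for mitochondrial members, against 0.052 over all genes. The block fit leaves few degrees of freedom, since only numbers 3 and 4 occur in both groups. Deviations of same-numbered libraries correlated at -0.02 and -0.16. Libraries of unlike number were not compared in this way, so these values cannot tell whether the numbers mark pairs. The main fit does not take them as pairs. In the block fit the contrast between groups rests on replicates 3 and 4, so ddx41 mutant replicate 2 does not enter it. Library totals alone moved the median of all genes to 0.12. Of the other lists, regulators that rose numbered 3 with RLE, 2 with upper quartile scaling or no filter and 1 with the block, complex II genes 1 with upper quartile scaling or no filter, and partners under other names 2 with library totals or limma-voom. Macrophage markers that fell numbered 2 with library totals and 7 with DESeq2, and erythroid markers 4 with DESeq2 and 5 with limma-voom. With the block, 1 assembly, 0 complex II, 0 partner, 0 RNA processing and 1 import gene rose, and 1 muscle and 1 macrophage marker fell. The values of cox8b rest on 8 to 31 counts per library in mutants and 15 to 24 in siblings.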
